A study of Mus musculus with 18 samples.

Results

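Mitosis genes encode the proteins that condense and segregate the chromosomes and divide the cell, and 37 of them are described here in mouse lung. They were chosen by symbol, with Mki67 as the marker, from the genes on the array. Of the 37, 36 were measured, since Ccnb1 had no probe set used here that names it alone. They stand among 18193 genes with such a probe set. Where several probe sets name a gene, the one with the highest mean signal was used. Of the 36, 27 lay above their array's 40th percentile of signal on at least 3 of 18 arrays and were tested, among 13434 genes tested in all. The 9 that were measured and not tested are Melk, Aurkb, Ndc80, Nuf2, Ttk, Kif11, Kif20a, Tpx2 and Ect2. Bub1 and Cenpe passed on 5 and 6 arrays, and 18 members lay above the percentile on all 18.

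The mice were female B6C3F1 hybrids, aged 18 weeks and dosed for 13 weeks, and RNA was taken from the right lobe of the lung, with 1 animal per array and 3 animals per group. The groups are 1,5-naphthalenediamine (NDA, 2000 ppm in feed), N-(1-naphthyl)ethylenediamine dihydrochloride (NEDD, 2000 ppm in feed), pentachloronitrobenzene (PCNB, 8187 ppm in feed), 2,3-benzofuran (gavage at 240 mg/kg with corn oil as vehicle, 5 ml/kg), corn oil control (the same volume of vehicle alone) and feed control (rodent chow alone). Gavage was given 5 days a week and feed 7 days a week, so corn oil, gavage and the weekly schedule cannot be told apart between the controls. The labels class NDA and benzofuran as positive lung carcinogens and NEDD and PCNB as negative. Animals are named by group and animal number.

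In dividing cells the cyclin-dependent kinase Cdk1 with cyclins A and B drives entry into mitosis, together with the Polo-like kinase Plk1 and the Aurora kinases. The kinetochore attaches chromosomes to the spindle, and the spindle checkpoint holds the anaphase-promoting complex in check until all are attached, after which the central spindle and midbody complete cytokinesis. Most cells of the adult lung do not divide, and transcripts of this kind come mainly from the few that do. Many of these genes are known to share a promoter element, the cell cycle genes homology region, and CCAAT boxes, bound by the factor NF-Y.

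Promoters of 31 of the 37 members were found in RefSeq (assembly GRCm38.p6), from 250 bases before to 50 after the start. Each gene was counted by a single promoter, at its most downstream start where several are listed. The letters TTTGAA or TTCGAA, the usual forms of the homology region, occurred on either strand in 24 of 31, a share of 77.4%. They occurred in 19.5% of the 27025 promoters of that length counted in this way over all genes. CCAAT on either strand occurred in 71.0% of the members' promoters and in 37.6% of all. Both occurred in 64.5% of the members' promoters and in 7.54% of all. The motifs were counted wherever the letters stood, overlaps included, and a match is a description of letters and no measure of binding. For the 4 members with the smallest p between corn oil control and feed control, 200 bases from 170 before to 30 after the start follow, with the motifs on either strand in capitals, shown because these 4 genes recur in the comparisons (TTTGAA read as TTCAAA and CCAAT as ATTGG on the other strand). Cep55 lies at chr19:38054871-38055070 on the plus strand, Racgap1 at chr15:99651627-99651826 on the minus strand, Mki67 at chr7:135716350-135716549 on the minus strand and Top2a at chr11:99024160-99024359 on the minus strand, each written 5′ to 3′ along its gene. Cep55 has 2 starts listed, and the more downstream was used.
Cep55: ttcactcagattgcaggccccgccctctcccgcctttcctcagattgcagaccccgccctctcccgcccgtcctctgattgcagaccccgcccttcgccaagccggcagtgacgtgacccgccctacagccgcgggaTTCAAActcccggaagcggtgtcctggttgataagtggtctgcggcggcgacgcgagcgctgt
Racgap1: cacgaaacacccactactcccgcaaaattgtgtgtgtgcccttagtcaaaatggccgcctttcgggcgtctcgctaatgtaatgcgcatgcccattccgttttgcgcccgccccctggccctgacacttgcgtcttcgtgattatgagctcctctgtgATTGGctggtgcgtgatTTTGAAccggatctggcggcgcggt
Mki67: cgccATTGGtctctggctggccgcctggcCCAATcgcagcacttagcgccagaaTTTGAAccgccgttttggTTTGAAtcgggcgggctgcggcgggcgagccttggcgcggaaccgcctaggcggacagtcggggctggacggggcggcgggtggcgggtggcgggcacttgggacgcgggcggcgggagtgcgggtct
Top2a: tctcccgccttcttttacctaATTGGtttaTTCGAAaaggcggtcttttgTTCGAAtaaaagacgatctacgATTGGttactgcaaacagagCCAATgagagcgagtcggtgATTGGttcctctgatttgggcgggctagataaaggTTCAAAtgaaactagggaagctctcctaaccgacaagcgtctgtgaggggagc
Racgap1 held its match at position 6 after the start, and Mki67 held TTTGAA at -116 and -98. Cep55 held no CCAAT in the 300 bases searched. Members with and without either form of the homology region had medians close to each other, 0.54 log2 units with (n = 24) and 0.56 without (n = 6) in corn oil control over feed control, with no test between them.

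Signals are on a log2 scale as deposited, and each difference is one of group means from limma, given with its standard error. p-values are two-sided and adjusted by Benjamini-Hochberg over all 13434 genes, and a gene was called at an adjusted p under 0.05. An exact permutation test of 3 animals against 3 cannot go below p = 0.1, so all p-values rest on the fit across genes. A change in a bulk sample cannot be told apart between fewer cells of a type and less RNA per cell.

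The arrays differed little in overall signal, with medians between 5.678 and 5.803. The member level of an array is the median over the 36 genes of signal minus each gene's mean over 18 arrays. It was 0.14, -0.08 and 0.37 in NDA 2, 4 and 5. It was 0.02, 0.04 and 0.02 in NEDD 12, 14 and 15, and -0.28, 0.04 and -0.21 in PCNB 16, 18 and 20. It was -0.09, -0.12 and 0.13 in benzofuran 6, 8 and 10. It was 0.34, 0.18 and 0.24 in corn oil control 22, 24 and 25, and -0.33, -0.16 and -0.28 in feed control 27, 28 and 29. All 3 corn oil arrays lay above the feed control, PCNB, NEDD and benzofuran arrays, and only NDA 5 was higher. Benzofuran 10 stood apart on all genes, with an array weight of 0.121, and its actin 3′ signal exceeded the 5′ signal by 0.91 log2 units, against 0.33 to 0.73 in the other 17.

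**Figure D1:**
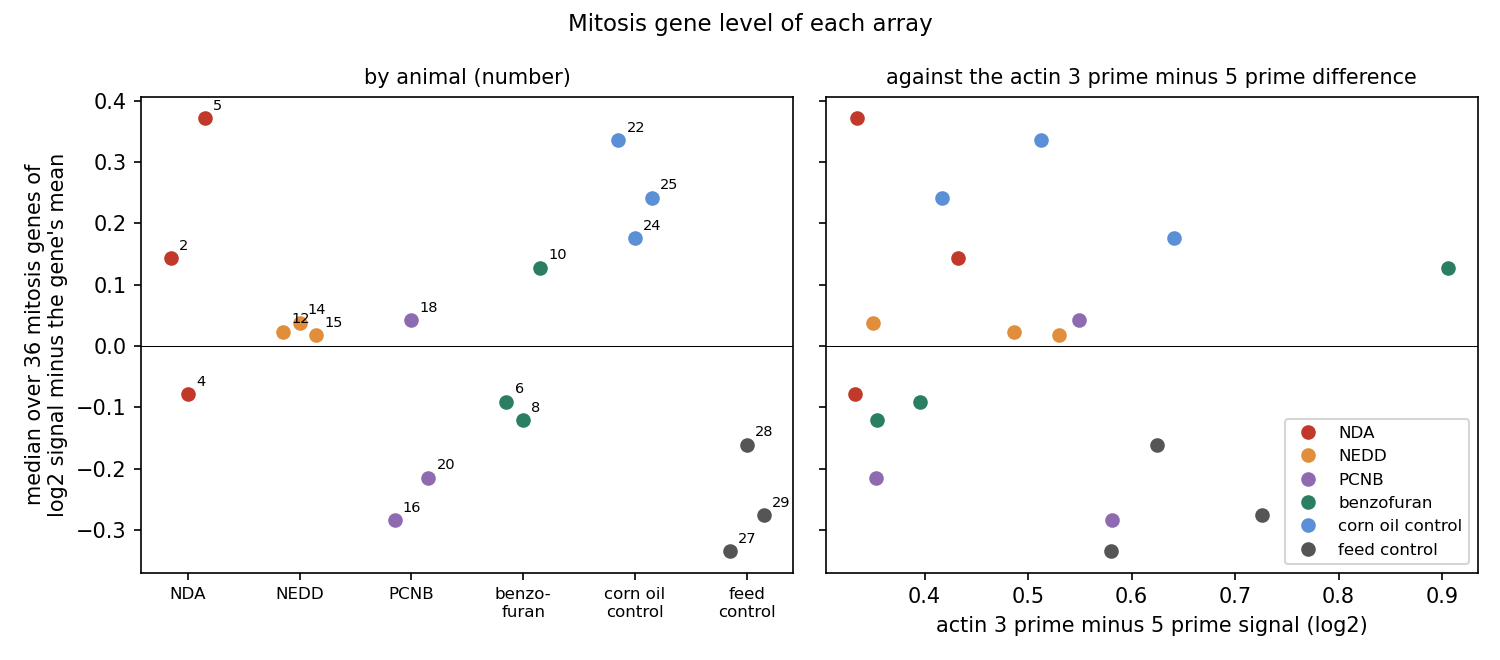
Member level of each array, the median over 36 mitosis genes of log2 signal minus the gene's mean over 18 arrays, by group with animal numbers (left) and against the actin 3′ minus 5′ difference in log2 units (right). The 3 corn oil control arrays lie between 0.18 and 0.34 and the 3 feed control arrays between -0.33 and -0.16, and benzofuran 10 lies alone at the right at 0.91.

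The group order was led by corn oil control, which had the highest group mean for 25 of 36 members, NDA for 7, NEDD for 2 and benzofuran for 2. Feed control had the lowest mean for 25, PCNB for 7, benzofuran for 2, NDA for 1 and NEDD for 1. Over the 6 groups, 4 members passed limma's F test, where 2.93% of all genes did. At an unadjusted p under 0.05, 17 of 27 tested members passed, as did 15.3% of all genes. The 4 were Racgap1 (adjusted p = 0.0083), a component of the central spindle, Mki67 (0.0260), which coats mitotic chromosomes, Cep55 (0.0337), which acts at the midbody in abscission, and Ccnb2 (0.0436), cyclin B2. Racgap1 remained past the threshold when any 1 of the 18 arrays was left out. Mki67 lost it without NDA 2, PCNB 20, corn oil control 22 or corn oil control 24, with adjusted p up to 0.0806. The largest adjusted p with 1 array left out was 0.0913 for Cep55, without feed control 27, and 0.0997 for Ccnb2, without feed control 29, and 9 and 6 of 18 such fits kept those genes past the threshold.

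**Figure D2:**
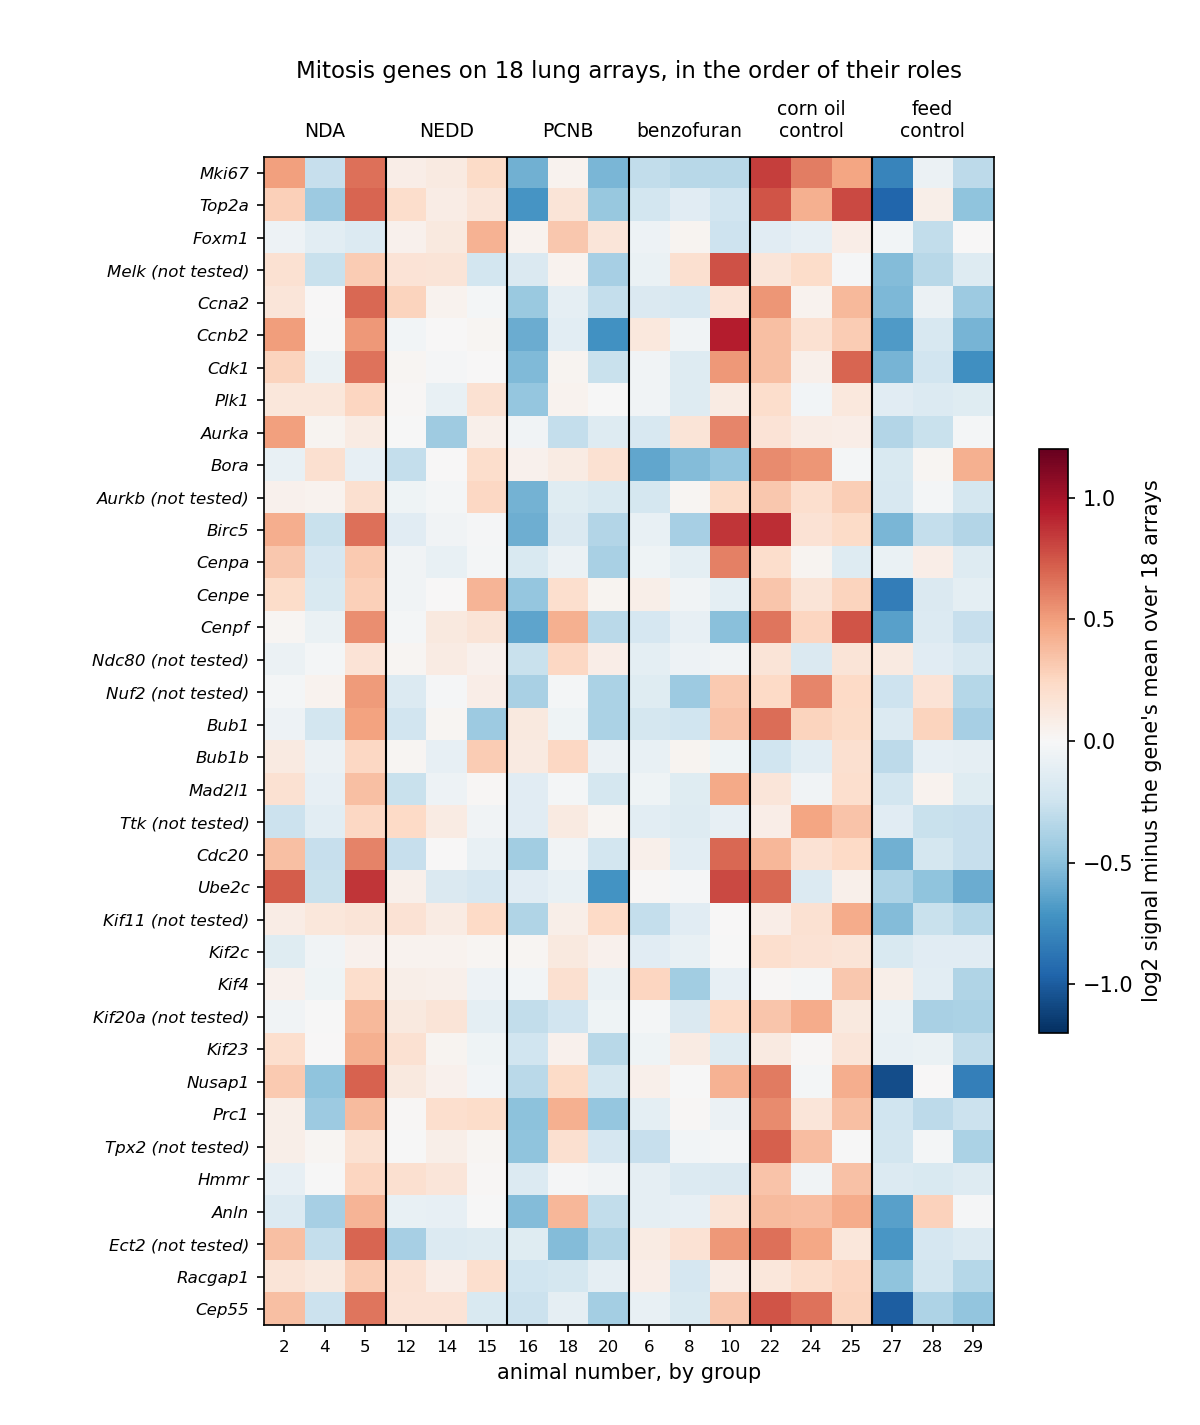
The 36 measured mitosis genes (rows, in the order of their roles) on 18 arrays (columns, animal number by group), as log2 signal minus the gene's mean over the arrays, with red above and blue below that mean. Red fills most of the 3 corn oil control columns and blue most of the 3 feed control columns, and NDA 5 is the highest of its group for 32 of 36 genes.

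Set against feed control, corn oil control had a higher mean for all 36 members, with a median difference of 0.54 log2 units and a range of 0.05 to 1.17, while the median over all genes tested was -0.02. No member was called, and 0% of all genes were. By unadjusted p under 0.05, 18 of the 27 tested members were higher in corn oil control, where 1.06% of all genes were. In either direction 271 genes passed, fewer than the 671.7 expected at that threshold if no gene differed. For 27 of 36 members, 19 of them tested, all 3 corn oil arrays lay above all 3 feed arrays, a separation found for 2.32% of all genes tested. Genes measured in the same animals are not independent replicates.

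Cep55, Top2a and Mki67 had the 3 largest differences between the controls, and Racgap1, with a difference near the member median, the smallest SE of the 4 described here. Cep55 had 6.10, 6.00 and 5.61 in corn oil control 22, 24 and 25, and 4.36, 4.98 and 4.87 in feed control 27, 28 and 29. The lowest corn oil value lay above the highest feed value, a difference of 1.17 ± 0.21 (SE), which is 2.25-fold, with an adjusted p of 0.247 in limma. Racgap1 had 6.32, 6.39 and 6.44 in corn oil control and 5.70, 5.96 and 5.84 in feed control, without overlap. Its difference was 0.55 ± 0.10 (adjusted p = 0.247 in limma).

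Mki67 had 8.14, 7.92 and 7.79 in corn oil control and 6.52, 7.24 and 7.00 in feed control, again without overlap. That is a difference of 1.03 ± 0.22 and 2.04-fold (adjusted p = 0.672 in limma). Top2a, the topoisomerase that untangles sister chromatids, had 7.84, 7.51 and 7.87 in corn oil control and 6.13, 7.15 and 6.60 in feed control, a difference of 1.11 ± 0.26 (adjusted p = 0.847). Its groups did not overlap either. The smallest differences were those of Foxm1, a transcription factor of the late cell cycle, at 0.05 ± 0.12, and of Cenpa, the centromeric histone, at 0.08 ± 0.17. Another probe set of Cenpa, above the 40th percentile on all 18 arrays, was at 0.29.

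By role, the median difference between the controls was 1.07 for the chromosome genes Mki67 and Top2a, 0.66 for 4 cytokinesis genes and 0.65 for Cdc20 and Ube2c of the anaphase-promoting complex. It was 0.62 for Aurkb and Birc5 of the chromosomal passenger complex and 0.56 for 9 spindle motors and microtubule proteins. It was 0.50 for 5 centromere and kinetochore genes, 0.39 for 8 entry kinases, cyclins and their regulators and 0.35 for 4 spindle checkpoint genes. Leaving out 1 array left the overall median between 0.47 (without feed control 27) and 0.63 (without feed control 28), with 0 members called in each of those fits.

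**Figure D3:**
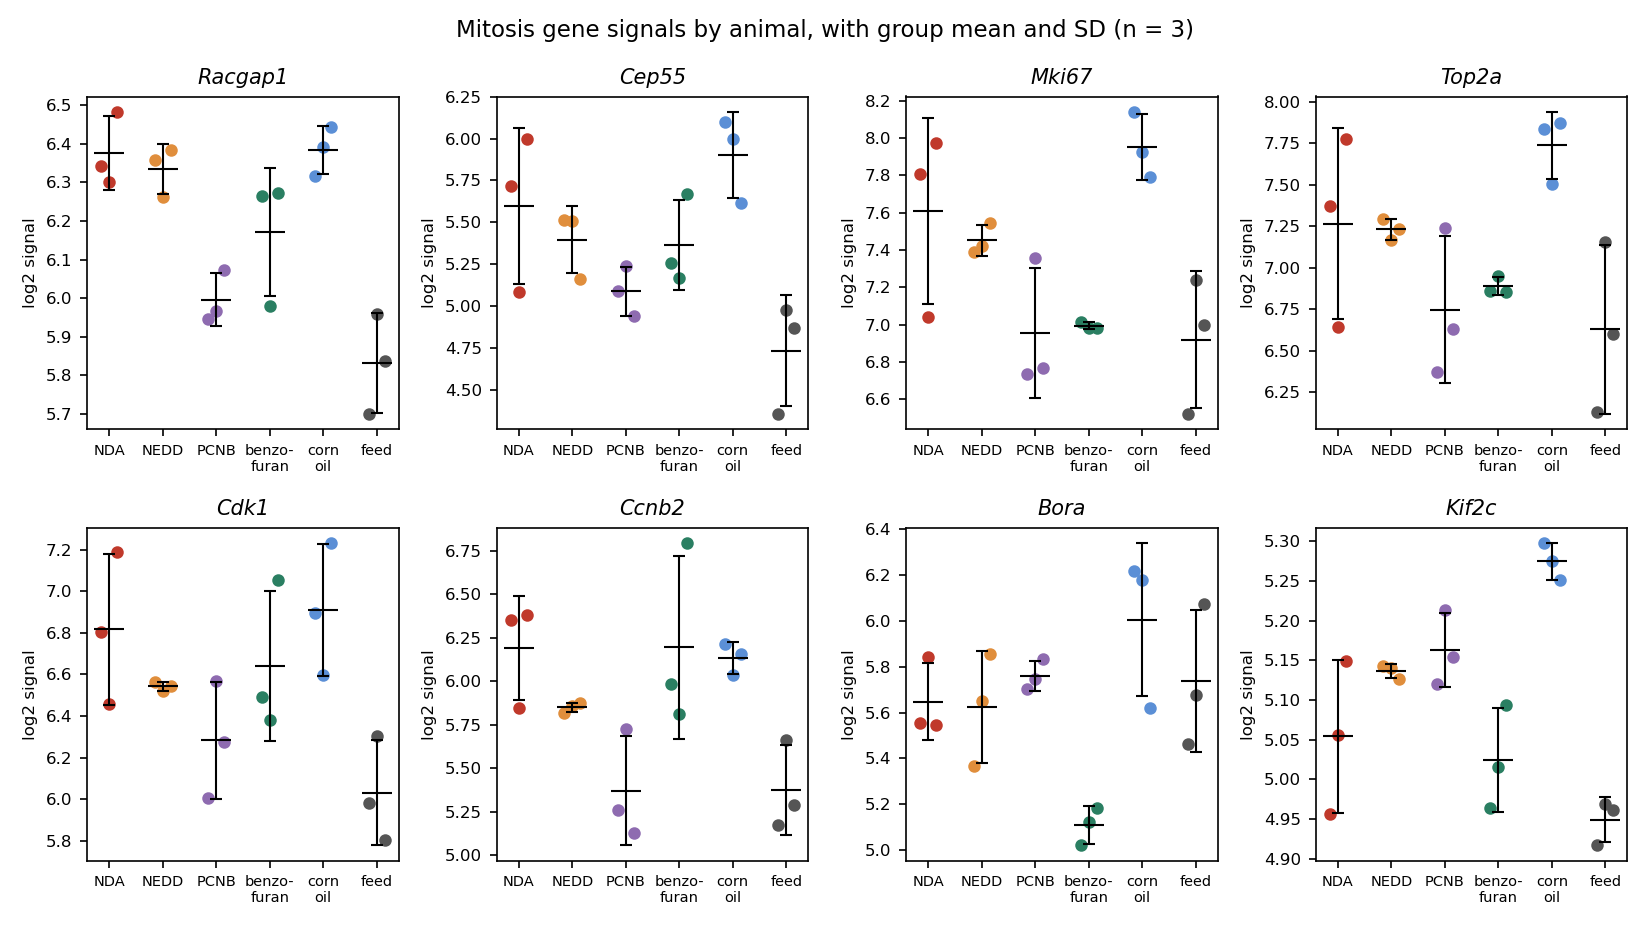
Log2 signal of 8 mitosis genes in each animal (points) with the mean and SD of each group (bars, n = 3), on axes of their own for each gene. Corn oil control lies above feed control without overlap for Racgap1, Cep55, Mki67, Top2a, Cdk1, Ccnb2 and Kif2c, and the 3 benzofuran animals lie below all others for Bora.

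NDA and feed control differed in the same direction for most members, with 34 of 36 higher in NDA and a median of 0.38 (range -0.09 to 0.92), against -0.02 over all genes. In 17 of 36 members, 13 of them tested, all NDA arrays lay above all feed arrays, as for 9.48% of all genes. Racgap1 alone rose by the test, where 1.37% of all genes were called and 1.12% were called higher. By unadjusted p under 0.05, 16 of 27 tested members were higher, as were 5.1% of all genes. Racgap1 had 6.34, 6.30 and 6.48 in NDA 2, 4 and 5 and 5.70, 5.96 and 5.84 in feed control 27, 28 and 29. All NDA values were above all feed values, by 0.54 ± 0.10 and 1.46-fold (adjusted p = 0.00578 in limma). Without NDA 5 the adjusted p was 0.0521. Against corn oil control in place of feed control, Racgap1 in NDA was at -0.0086 and the member median at -0.15. With the stricter filter or the mean of all probe sets Racgap1 was not among the genes tested, and no member was called.

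Other members stood near the threshold. Cep55 had 5.71, 5.09 and 5.99 in NDA and 4.36, 4.98 and 4.87 in feed control, a difference of 0.86 ± 0.21 (adjusted p = 0.0543). Ccnb2 had 6.35, 5.85 and 6.38 in NDA and 5.17, 5.66 and 5.29 in feed control, a difference of 0.82 ± 0.21 (adjusted p = 0.079). The values of NDA 4 were the lowest of its group and still above feed control for both.

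Cdk1 had 6.80, 6.46 and 7.19 in NDA and 5.98, 6.30 and 5.80 in feed control, a difference of 0.79 ± 0.21 (adjusted p = 0.0833). Mki67 overlapped, with 7.81, 7.04 and 7.97 in NDA and 6.52, 7.24 and 7.00 in feed control, a difference of 0.69 ± 0.22 (adjusted p = 0.17). Here NDA 4 lay within the feed control range. Foxm1 at -0.01 ± 0.12 and Anln, a scaffold of the cleavage furrow, at 0.08 ± 0.23 differed least. By role the median ran from 0.22 for the checkpoint genes to 0.75 for Cdc20 and Ube2c. NDA 5 had the highest of the group's 3 values for 32 of 36 members and NDA 4 the lowest for 27. Without NDA 4, 8 members were called, and without NDA 5, 0.

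NEDD and feed control differed with 34 of 36 members higher in NEDD, a median of 0.29 (range -0.12 to 0.67), and no member called, where 0.0223% of all genes were, 0.0149% of all genes as higher. By unadjusted p under 0.05, 12 of 27 tested members were higher, as were 4.21% of all genes. All NEDD arrays lay above all feed arrays for 20 of 36 members, 17 of them tested, as for 7.23% of all genes tested. Racgap1 had 6.36, 6.26 and 6.38 in NEDD 12, 14 and 15 and 5.70, 5.96 and 5.84 in feed control, a difference of 0.50 ± 0.10 (adjusted p = 0.278 in limma). The groups did not overlap.

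Cep55 had 5.51, 5.51 and 5.17 in NEDD and 4.36, 4.98 and 4.87 in feed control, a difference of 0.66 ± 0.21 (adjusted p = 0.439). Cenpe, a kinetochore motor near the signal filter, had 4.84, 4.88 and 5.29 in NEDD and 4.05, 4.71 and 4.77 in feed control, a difference of 0.49 ± 0.19 (adjusted p = 0.494). Only the highest of these NEDD values and no feed control value lay above its array's 40th percentile, so the Cenpe difference is mostly between values below the filter. Ccna2, cyclin A2, had 6.49, 6.26 and 6.19 in NEDD and 5.68, 6.15 and 5.79 in feed control, a difference of 0.44 ± 0.18 (adjusted p = 0.494). None of these 3 genes overlapped between the groups.

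Mki67 was 7.39, 7.42 and 7.55 in NEDD, above 6.52, 7.24 and 7.00 in feed control, by 0.53 ± 0.22 (adjusted p = 0.495). The 3 NEDD arrays were close to each other. Cenpa at 0.00 ± 0.17 and the checkpoint gene Mad2l1 at 0.00 ± 0.15 differed least.

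PCNB and feed control gave the smallest shift of the members, a median of 0.09 (range -0.16 to 0.53) with 28 of 36 higher in PCNB. None was called, where 0.0149% of all genes were, and the smallest adjusted p was 0.9995. Without adjustment, 2 of 27 tested members were higher, as were 1.71% of all genes. In either direction 399 genes passed, again fewer than the 671.7 expected if no gene differed. All PCNB arrays lay above all feed arrays for 4 of 36 members, 3 of them tested, as for 3.67% of all genes tested. Kif2c, a microtubule depolymerase, had 5.12, 5.21 and 5.15 in PCNB 16, 18 and 20 and 4.92, 4.97 and 4.96 in feed control, a difference of 0.21 ± 0.08. Foxm1 had 5.81, 6.09 and 5.91 in PCNB and 5.73, 5.47 and 5.77 in feed control, a difference of 0.28 ± 0.12. Both groups stood apart in both genes.

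Bub1b, a checkpoint kinase, had 6.02, 6.16 and 5.84 in PCNB and 5.60, 5.81 and 5.80 in feed control, a difference of 0.27 ± 0.13 without overlap. Nusap1, a spindle-associated protein, had 6.32, 6.87 and 6.44 in PCNB and 5.57, 6.65 and 5.82 in feed control, a difference of 0.53 ± 0.28 with overlap. These were the 4 members with the smallest p. Other probe sets of Bub1b, above the 40th percentile on 14 and 13 arrays, were at -0.01 and 0.07 for PCNB. Those of Kif2c were at 0.13, 0.03 and -0.28, those of Foxm1 at 0.26, 0.06 and 0.03, and that of Nusap1 at 0.07. Mki67 had 6.74, 7.36 and 6.77 in PCNB and 6.52, 7.24 and 7.00 in feed control, a difference of 0.03 ± 0.22. Ccnb2 and Plk1 differed least, both by 0.00, with SEs of 0.21 and 0.12. PCNB 18 had the highest of the group's 3 values for 29 of 36 members and PCNB 16 the lowest for 24. NDA, NEDD and PCNB were all set against the same 3 feed control animals, and their differences are not independent of each other.

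**Figure D4:**
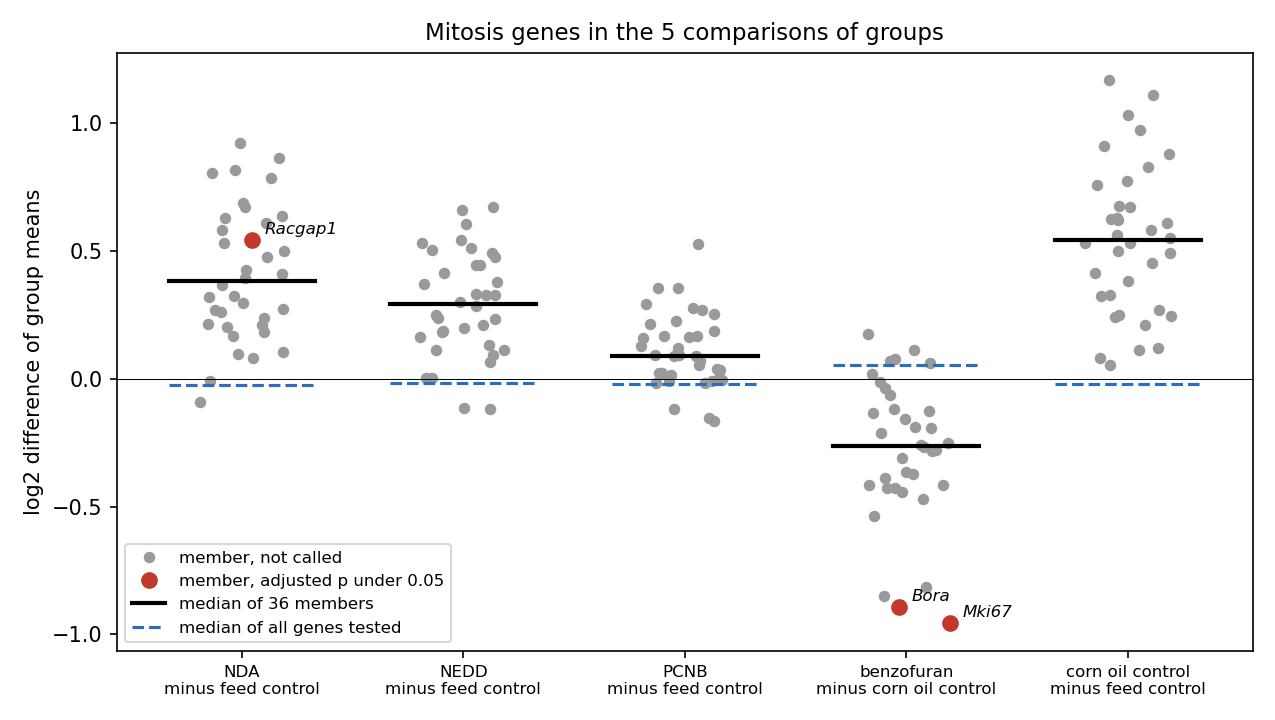
Difference of group means in log2 units for each of 36 mitosis genes (points) in 5 comparisons, with the median of the members (solid bar) and of all genes tested (dashed bar), and called members in red. The member medians are 0.38 for NDA, 0.29 for NEDD, 0.09 for PCNB, -0.26 for benzofuran and 0.54 for the controls, and Racgap1, Bora and Mki67 are the called members.

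Benzofuran lay below corn oil control, with 30 of 36 members lower, a median of -0.26 (range -0.96 to 0.18) and a median of 0.05 over all genes. Bora and Mki67 fell by the test, where 1.73% of all genes were called and 0.171% were called lower. By unadjusted p under 0.05, 8 of 27 tested members were lower, as were 4.38% of all genes. All benzofuran arrays lay below all corn oil arrays for 13 of 36 members, 10 of them tested, as for 4.32% of all genes. Bora, the cofactor through which Aurora A activates Plk1, had 5.02, 5.12 and 5.18 in benzofuran 6, 8 and 10 and 6.22, 6.18 and 5.62 in corn oil control 22, 24 and 25. Its benzofuran values were the 3 lowest of all 18 arrays, and it fell by 0.89 ± 0.17 (0.538-fold, adjusted p = 0.0140 in limma). Mki67 had 7.02, 6.98 and 6.98 in benzofuran and 8.14, 7.92 and 7.79 in corn oil control, and fell by 0.96 ± 0.22 (0.515-fold, adjusted p = 0.0302).

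The Bora call was lost without corn oil control 22 (adjusted p = 0.0887) or 24 (0.0558). The Mki67 call was lost without benzofuran 6 (0.0505), benzofuran 10 (0.106), corn oil control 22 (0.153) or corn oil control 24 (0.0796). Cenpf, a kinetochore protein, had 5.18, 5.28 and 4.88 in benzofuran and 6.02, 5.64 and 6.13 in corn oil control, a difference of -0.81 ± 0.23 (adjusted p = 0.0712). Top2a had 6.86, 6.95 and 6.85 in benzofuran and 7.84, 7.51 and 7.87 in corn oil control, a difference of -0.85 ± 0.26 (adjusted p = 0.0974). Neither overlapped.

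Mad2l1 at -0.01 ± 0.15 and Bub1b at 0.02 ± 0.13 differed least between benzofuran and corn oil control. Benzofuran 10 had the highest of the group's 3 values for 26 of 36 members. It had 6.79 for Ccnb2, against 5.98 and 5.81 in benzofuran 6 and 8 and 6.21, 6.03 and 6.15 in corn oil control. The chromosome genes had a median of -0.90 by role, and the anaphase-promoting complex genes one of 0.00. Against feed control in place of corn oil control, the member median was 0.20 and no member was called. The comparison shares the corn oil control animals with that of the controls, so the signs of both rest in part on the same 3 arrays.

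The effect of NDA over feed control was higher than the effect of benzofuran over corn oil control for all 36 members, with a median difference of 0.68 (range 0.03 to 1.65). For 2 members the difference itself passed the test, where 0.29% of all genes did, 0.201% in the same direction. By unadjusted p under 0.05, 19 of 27 tested members were higher, as were 2.05% of all genes. The called members were Mki67, at 1.65 ± 0.30 (adjusted p = 0.0208 in limma), and Racgap1, at 0.76 ± 0.14 (adjusted p = 0.0247). Leaving out 1 of 12 arrays kept Mki67 past the threshold in 6 fits, with differences of 1.45 to 1.93, and Racgap1 in 5, with differences of 0.66 to 0.82. Next by p stood Cep55 at 1.40 (adjusted p = 0.0625), whose NDA and control values are given above. In benzofuran Cep55 ran from 5.17 to 5.67 and Racgap1 from 5.98 to 6.27. Cenpf, at 1.35 (0.114), had 5.41, 5.30 and 5.94 in NDA and 4.73, 5.22 and 5.11 in feed control, beside the benzofuran and corn oil values above. Foxm1, at 0.03, and Cenpa, at 0.09, differed least. The contrast contains the gap between the controls, which was itself positive for all 36 members, with a median of 0.54. Without the controls, the group means of Mki67 were 7.61 in NDA and 6.99 in benzofuran. Those of Racgap1 were 6.38 in NDA and 6.17 in benzofuran.

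The mean effect of NDA and benzofuran, each over its own control, was below that of NEDD and PCNB for 25 of 36 members, with a median difference of -0.15 (range -0.47 to 0.24). Kif2c differed by -0.27 ± 0.07 (adjusted p = 0.0347 in limma), where 3.49% of all genes were called and 0.335% were called lower. At that level without adjustment, 6 of 27 tested members were lower, as were 5.55% of all genes. Kif2c had 4.96, 5.06 and 5.15 in NDA, 4.96, 5.02 and 5.09 in benzofuran, 5.14, 5.14 and 5.13 in NEDD and 5.12, 5.21 and 5.15 in PCNB. Its corn oil control values were 5.30, 5.28 and 5.25 and its feed control values 4.92, 4.97 and 4.96. Its group mean was highest in corn oil control and lowest in feed control. Leaving out 1 array kept the Kif2c call in 5 of 18 fits. The call was also lost after median centring (adjusted p = 0.0885), after quantile normalization (0.119) and with the trend and robust variance model (0.0781). Under the stricter filter and the mean of all probe sets Kif2c was not tested. Without subtracting the controls the member median of the contrast was 0.13, opposite in sign, and Kif2c was at -0.11 (adjusted p = 0.274). The probe set lay above the 40th percentile on 11 arrays, and the 3 others of the gene were at 0.13, 0.088 and -0.028 in this contrast. Bora followed at -0.45 (adjusted p = 0.107), with 5.55, 5.84 and 5.55 in NDA, 5.37, 5.65 and 5.85 in NEDD, 5.70, 5.74 and 5.83 in PCNB and 5.46, 5.67 and 6.07 in feed control, beside the values above. Foxm1, at -0.31 (0.112), had 5.71, 5.64 and 5.60 in NDA, 5.70, 5.80 and 5.52 in benzofuran, 5.81, 5.88 and 6.18 in NEDD, 5.81, 6.09 and 5.91 in PCNB, 5.63, 5.67 and 5.84 in corn oil control and 5.73, 5.47 and 5.77 in feed control. Hmmr, a spindle-associated protein, at -0.26 (0.162), had 5.03, 5.12 and 5.39 in NDA, 5.02, 4.96 and 4.95 in benzofuran, 5.32, 5.27 and 5.14 in NEDD, 4.96, 5.11 and 5.08 in PCNB, 5.47, 5.09 and 5.48 in corn oil control and 4.97, 4.95 and 4.97 in feed control. Bora and Hmmr overlapped between the treated animals of the classes, and for Foxm1 all NDA and benzofuran values lay below all NEDD and PCNB values. Plk1, at 0.00, and Birc5, at 0.01, differed least.

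Other probe sets of these genes were examined for direction. There were 40 of them, for 23 genes, of which 11 lay above the 40th percentile on at least 3 arrays. Of the 40, 33 had the sign of the probe set used in corn oil control over feed control, 26 in NDA, 37 in NEDD and 27 each in PCNB and benzofuran. Of the 11 above the percentile, 11 had that sign between the controls, 8 in NDA, 11 in NEDD and 6 each in PCNB and benzofuran. Racgap1 had 2 others, at 0.47 and -0.01 for NDA over feed control, and neither exceeded the percentile on any array. The other probe set of Bora fell short of the percentile on every array too, at -0.25 for benzofuran over corn oil control. For Cenpa, another probe set above the percentile on all 18 arrays was at 0.14 for NEDD and -0.39 for benzofuran. The one used was at 0.00 and 0.11. In the NDA minus benzofuran effect that other probe set was at 0.38 and the one used at 0.09. The within-group SD of the tested members had a median of 0.266, against 0.163 over all genes tested.

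Among 32 other genes of mitosis, 24 were tested and none was called in the 5 comparisons of groups. Their median was 0.23 for corn oil control over feed control with 30 of 32 higher, 0.14 for NDA, 0.15 for NEDD and 0.03 for PCNB over feed control, and -0.07 for benzofuran over corn oil control. Aspm, a spindle pole protein, was at 0.77 ± 0.19 and Kif22, a chromosome-bound kinesin, at 0.57 ± 0.16 between the controls. Cdca8, a passenger complex subunit, was at 0.89 ± 0.26 and the centrosomal kinase Nek2 at 0.47 ± 0.14 for NDA. Nek2 was the member of this list called in the class contrast, at 0.55 ± 0.12 (adjusted p = 0.0158 in limma), 1 of 24 tested where 3.49% of all genes were called. For benzofuran Aspm was at -0.55 ± 0.19 and Nek2 at 0.35 ± 0.14. Aspm and Espl1, the separase, were at 0.49 and 0.28 for NEDD, and Spc24 of the kinetochore and Espl1 at 0.40 and 0.26 for PCNB.

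Of 29 measured S-phase genes, which copy the DNA before mitosis, 25 were tested and none was called either. Their median was 0.20 between the controls with 26 of 29 higher in corn oil control, 0.13 for NDA, 0.10 for NEDD, 0.06 for PCNB and -0.11 for benzofuran. Rrm2, a subunit of ribonucleotide reductase, was at 1.08 ± 0.23 and the helicase subunit Mcm5 at 0.57 ± 0.13 between the controls. Tk1, thymidine kinase, was at 0.68 ± 0.18 and Rrm2 at 0.82 ± 0.23 for NDA, and Mcm10 and Fen1 at 0.51 and 0.54 for NEDD. Rfc4 and Mcm3 were at -0.53 and 0.20 for PCNB, and Gmnn, the replication licensing inhibitor, and Mcm4 at 0.68 and -0.26 for benzofuran.

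None of 14 cell cycle inhibitors was called, and their medians lay between -0.09 for NEDD and 0.08 for benzofuran. Cdkn1a, which encodes the inhibitor p21, was at 0.79 ± 0.20 for NDA (adjusted p = 0.0608) and 0.59 ± 0.20 for benzofuran (adjusted p = 0.122), and at -0.44 ± 0.20 between the controls. Cdkn1c was at -0.33 ± 0.09 for NDA and -0.25 ± 0.09 between the controls. E2f4 and Ccng1 were at 0.29 and -0.33 for NEDD, E2f4 and Gadd45a at 0.21 and -0.30 for PCNB, and Rb1 at -0.34 for benzofuran.

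Markers of other cells and RNA quality moved with some of the same groups, and the part of the markers in the results was not tested. RNA quality entered only as an actin covariate in an alternative fit, given in the closing section. Medians over the measured markers of 12 cell type lists are differences in log2 units. Between the controls they were 0.25 for fibroblasts, 0.19 for erythroid cells, 0.12 for T and NK cells, 0.05 for alveolar macrophages, 0.04 for alveolar type 1 cells, 0.01 for neutrophils, 0.00 for alveolar type 2 cells, -0.01 for thymocytes and for ciliated and club cells, -0.07 for B and plasma cells, -0.09 for endothelial cells and -0.15 for megakaryocytes. For NDA over feed control they were 0.37 for B and plasma cells, 0.33 for erythroid cells, 0.17 for megakaryocytes, 0.11 for alveolar macrophages, 0.05 for neutrophils, 0.00 for ciliated and club cells, -0.04 for thymocytes, -0.16 for alveolar type 2 cells, -0.20 for fibroblasts, -0.22 for endothelial and alveolar type 1 cells and -0.30 for T and NK cells. For benzofuran over corn oil control they ran from -0.55 (neutrophils) and -0.48 (fibroblasts) to 0.22 (ciliated and club cells) and 0.52 (megakaryocytes). They ran from -0.13 (B and plasma cells) to 0.16 (endothelial cells) for NEDD and from -0.05 (megakaryocytes) to 0.21 (erythroid cells) for PCNB. Medians over the tested markers alone were wider for some lists. They ran from -0.23 (neutrophils) to 0.39 (erythroid cells) for NEDD and from -0.26 (neutrophils) to 0.21 (erythroid cells) for PCNB. For NDA they were 1.12 for B and plasma cells and 0.61 for erythroid cells, and for benzofuran -0.66 for neutrophils.

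Erythroid markers moved with the mitosis genes on some arrays. Of 6 measured, 5 had a higher mean in NDA, 5 in corn oil control, 5 in PCNB and 3 in NEDD, each against feed control. None was called. The erythroid median was 0.21 for PCNB and 0.04 for NEDD, where the mitosis genes were at 0.09 and 0.29. Over the 4 tested erythroid markers it was 0.21 for PCNB and 0.39 for NEDD, where the tested mitosis genes were at 0.09 and 0.30. The mean erythroid signal, each marker taken relative to its mean over the arrays, was 0.20, -0.02 and 0.47 in NDA 2, 4 and 5. It was 0.15, -0.14 and 0.01 in NEDD 12, 14 and 15, and -0.11, 0.10 and 0.01 in PCNB 16, 18 and 20. It was 0.02, -0.10 and 0.05 in benzofuran 6, 8 and 10. It was 0.37, -0.24 and -0.03 in corn oil control 22, 24 and 25, and -0.13, -0.28 and -0.32 in feed control 27, 28 and 29. NDA 5 and corn oil control 22 were the highest 2 arrays, and corn oil control 24 lay within the feed control range. The log2 of the summed signal was 11.84 to 12.28 in NDA, 11.57 to 12.11 in NEDD, 11.30 to 11.55 in PCNB, 11.47 to 11.68 in benzofuran, 11.09 to 12.02 in corn oil control and 11.11 to 11.38 in feed control. Hba-a1 and Epb42 of this list exceeded the 40th percentile on no array.

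Members of the cell type lists that passed the test in the 5 comparisons of groups were few. For NDA they were 3 of 6 tested B and plasma cell markers and 2 of 7 alveolar macrophage markers, all higher, where 1.12% of all genes were called higher. For benzofuran they were 2 of 7 fibroblast markers, lower, and 1 of 8 ciliated and club cell markers, higher, where 1.73% of all genes were called and 0.171% were called lower. For NEDD 1 of 7 alveolar macrophage markers was called lower, where 0.0223% of all genes were called. All 7 fibroblast markers were measured above the percentile, and the log2 of their summed signal was 13.27 to 13.70 in benzofuran, 13.92 to 13.93 in corn oil control and 13.67 to 13.84 in feed control. That of the B and plasma cell markers was 13.46 to 14.51 in NDA and 10.42 to 11.37 in feed control. Of 7 measured thymocyte markers, Dntt, Rag1, Rag2, Ptcra and Ccr9 exceeded the 40th percentile on no array. The 3′ signal of actin exceeded its 5′ signal by 0.33 to 0.43 log2 units in NDA, 0.35 to 0.53 in NEDD, 0.35 to 0.58 in PCNB, 0.35 to 0.91 in benzofuran, 0.42 to 0.64 in corn oil control and 0.58 to 0.73 in feed control.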

How the data were processed

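The values analysed are the log2 signals deposited by the authors for 18 Affymetrix whole-genome mouse arrays. The labels' protocols describe total RNA purified with Trizol and RNeasy columns, with 10 µg labelled with biotin. The scale was judged from the range of 2.48 to 14.78, since neither the logarithm's base nor the summary and normalization methods are stated in the sources used here. Values were used as deposited. Of 45101 probe sets, 34945 had 1 gene symbol in the platform annotation, 932 several, 9160 none, and 64 were controls. Several and none named no gene.

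The fit used limma 3.58.1 (R 4.3.3) on all 18 arrays together, with a mean for each group and 12 residual degrees of freedom. Benjamini-Hochberg adjustment ran over genes, separately in each of 8 comparisons. The fit was also run on simulated data with noise independent between genes. Such data do not reproduce genes that move together within an animal, so no conclusion about the members is drawn from them. Groups follow the labels. Animals are separate mice, and 3 arrays per group limit the precision.

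The members, the 15 other gene lists and the tests were chosen with earlier results of these data known. Per-array values are given for Mki67 and, in each comparison, for the called members or, with fewer than 3 called, the 4 with the smallest p, and the 2 with the smallest difference are named. The cell type lists are given by medians, or by the lowest and highest of these, and called genes or the 2 with the smallest p are named for the cell cycle lists. Promoters and motif positions came from RefSeq. Alternatives in filter, scaling, array weights, variance model, an actin covariate, probe sets, samples in the fit, control group and arrays left out are in the closing section.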

Additional observations from a re-analysis of the deposited data

Results flagged for a closer look

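The effects of NDA and benzofuran, each over its own control, differed by a test of the difference itself for 2 members. Mki67 was at 0.69 for NDA over feed control and -0.96 for benzofuran over corn oil control, a difference of 1.65 ± 0.30 (adjusted p = 0.0208 in limma). Racgap1 was at 0.54 for NDA over feed control and -0.21 for benzofuran over corn oil control, a difference of 0.76 ± 0.14 (adjusted p = 0.0247 in limma). Kif2c differed by -0.27 ± 0.07 (adjusted p = 0.0347 in limma) between the mean effect of the chemicals labelled positive and that of those labelled negative. Its effects were 0.11 for NDA, -0.25 for benzofuran, 0.19 for NEDD and 0.21 for PCNB. Each of these contrasts includes both controls, which themselves differed for Mki67 by 1.03, Racgap1 by 0.55 and Kif2c by 0.33, higher in corn oil control.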

How the results depend on the processing

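No paired analysis was possible because no animal number occurs in more than 1 group. The signs of the members' medians held under filters, scaling, array weights, variance model, actin covariate and probe set averaging, and changed with the control group. Against corn oil control the member median was -0.15 for NDA, -0.23 for NEDD and -0.47 for PCNB, with 0 members called for NDA. Racgap1, Cep55 and Cdk1 were then at -0.0086, -0.31 and -0.091 for NDA, Racgap1 and Cep55 at -0.050 and -0.51 for NEDD, and Kif2c at -0.11 for PCNB. Against feed control, benzofuran had a member median of 0.20 and 0 members called, with Mki67 at 0.075, Cenpf at 0.096 and Top2a at 0.26. Without subtracting controls, the class contrast had a median of 0.13.

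Counts of called members changed as follows. The stricter filter called 0 for NDA, 1 for benzofuran, 1 for the NDA minus benzofuran effect, 0 for the class contrast and 1 over the 6 groups, with 11 members tested. Median centring and quantile normalization each called 1 for the NDA minus benzofuran effect, 0 for the class contrast and 2 over the groups. Array weights called 11 for NDA (755 genes in all), 1 for NEDD, 4 for benzofuran, 9 for the NDA minus benzofuran effect with a median of 0.87, 3 for the class contrast and 13 over the groups (3167 genes). The trend and robust variance model called 2 for NDA and 0 for the class contrast, and the actin covariate called 6 for NDA. The mean of all probe sets called 0 for NDA, 1 for the NDA minus benzofuran effect with a median of 0.50, 0 for the class contrast and 2 over the groups, with a median of 0.35 between the controls. Fits on both groups alone called 2 for NDA and 0 for benzofuran. The cause was not tested in any of these, except that fewer members were tested under the stricter filter.

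Leaving out 1 array gave 0 (without NDA 5) to 8 (without NDA 4) called members for NDA, 0 (without corn oil control 22) to 3 (without benzofuran 8) for benzofuran, 0 to 4 for the NDA minus benzofuran effect with medians of 0.52 to 0.79, 0 to 2 for the class contrast and 1 to 5 over the groups. Corn oil control over feed control had 0 called members in every alternative run, with 271 genes at an unadjusted p under 0.05. With 3 arrays per group and no detection calls, differences in members near the filter are the least certain.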
